A study of Mus musculus with 3 samples.

Results

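The genes described here are 35 genes of the endoplasmic reticulum, chosen by name from a list of chaperones, disulfide isomerases, translocation and degradation factors, stress sensors and their effectors, out of 46095 gene symbols in the count table. They were measured by RNA-seq of prostate tumor tissue from TRAMP mice, a strain that makes an SV40 tumor antigen in prostate epithelial cells and forms tumors there. The Phf8-KO tumors came from TRAMP mice, on a C57BL/6 background, that also lacked Phf8, the gene of a histone demethylase, and the TRAMP tumors came from TRAMP mice with wild-type Phf8. All mice were 37 weeks old. There were 2 Phf8-KO libraries (Phf8-KO1 and Phf8-KO2) and 1 TRAMP library, and each was made from pooled RNA of 3 mice, so that the spread between mice cannot be seen. Nothing in the labels says that the Phf8-KO pools hold different mice, and p-values then measure only the spread between these libraries, which may be technical.

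Secreted and membrane proteins enter the endoplasmic reticulum through the Sec61 channel, fold there with the help of chaperones and disulfide isomerases, and are exported to the Golgi or sent back to the cytosol for degradation. When unfolded proteins build up, IRE1, PERK and ATF6 start the unfolded protein response. IRE1 splices Xbp1 mRNA, PERK phosphorylates eIF2α and so favours translation of ATF4, and ATF6 is cut in the Golgi to free a transcription factor. Prostate epithelium is a secretory tissue and uses this machinery heavily. Counts per gene show neither splicing of Xbp1, phosphorylation nor cleavage, so the levels below are amounts of mRNA only.

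The libraries held 26747443 (Phf8-KO1), 31876182 (Phf8-KO2) and 29954020 (TRAMP) counts. Phf8 itself was at 15.0 and 15.9 CPM (counts scaled to library size) in the Phf8-KO pools, against 19.4 CPM in the TRAMP pool (log2 fold change -0.33, adjusted p = 0.438 in edgeR's quasi-likelihood test), and because the counts cover the whole gene and the deleted part is not given in the sources used here, they do not check the labels. Of the markers of prostate epithelium, 8 of 8 were detected, with summed levels of 5420 and 5210 CPM in the Phf8-KO pools, against 4640 CPM in the TRAMP pool. The pools also differed in other tissues. Skeletal muscle markers summed to 105 and 12.5 CPM in the Phf8-KO pools, against 1920 CPM in the TRAMP pool, adipocyte markers to 19.8 and 30.7 against 690 CPM, and seminal vesicle markers to 1440 and 2100 against 116 CPM. Neuroendocrine markers summed to 41.8 and 24.6 CPM in the Phf8-KO pools, against 157 CPM in the TRAMP pool. Smooth muscle markers differed between the Phf8-KO pools themselves, with 5090 CPM in Phf8-KO1, 385 CPM in Phf8-KO2 and 684 CPM in the TRAMP pool, as did goblet-like mucus cell markers, with 614, 2790 and 809 CPM. Of the 7 mucus cell markers tested, 4 lay above TRAMP in both Phf8-KO pools, among them Tff3 at 320 and 2200 CPM, against 5.09 CPM in TRAMP, and 2 lay below, among them Agr2, a folding enzyme that made up most of the TRAMP sum at 786 CPM. The part of these tissues in the results below was not tested, and in such bulk samples fewer cells of a type and less RNA per cell cannot be told apart.

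All 35 genes passed the filter on low counts. Exons of 6 (Manf, Pdia3, Pdia6, Syvn1, Derl2 and Ddit3) overlap those of another protein-coding gene, and as the strand setting of the counting is not given in the sources used here, their counts are less certain. None passed the test, which was the quasi-likelihood test of edgeR, adjusted by Benjamini-Hochberg over 18216 genes, at an adjusted p under 0.05 and a change of over 2-fold. Over all genes tested, 0.0384% were called lower in Phf8-KO and 0% were called higher. At an unadjusted p under 0.05, 6 of the 35 genes lay lower in Phf8-KO (17.1%, beside 12.2% of all genes tested) and 1 lay higher (2.86%, beside 14.9%). DESeq2 called 3 lower (Dnajb9, Dnajc3 and Asns) and 2 higher (Sdf2l1 and Calr), while it called 4.59% of all genes lower and 9.42% higher. A fold change over 2 in either direction was seen for 6 of the 35 (17.1%), against 33.6% of all genes tested. The smallest adjusted p among them was 0.101, with 1 residual degree of freedom for the spread.

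Both Phf8-KO pools lay below the TRAMP pool for 18 of the 35 genes (51.4%, beside 42.8% of all genes tested) and above it for 14 (40%, beside 40.8%). For Ssr2, Derl2 and Atf4 the TRAMP pool lay between them. Counting only genes whose distance to the TRAMP pool was larger than the distance between the Phf8-KO pools, 12 lay below (34.3%, beside 26.3%) and 8 above (22.9%, beside 29.7%). The median log2 fold change of the 35 genes was -0.19, beside 0.01 for all genes tested, and their summed level was 14500 and 13200 CPM in the Phf8-KO pools, against 15300 CPM in the TRAMP pool.

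**Figure D1:**
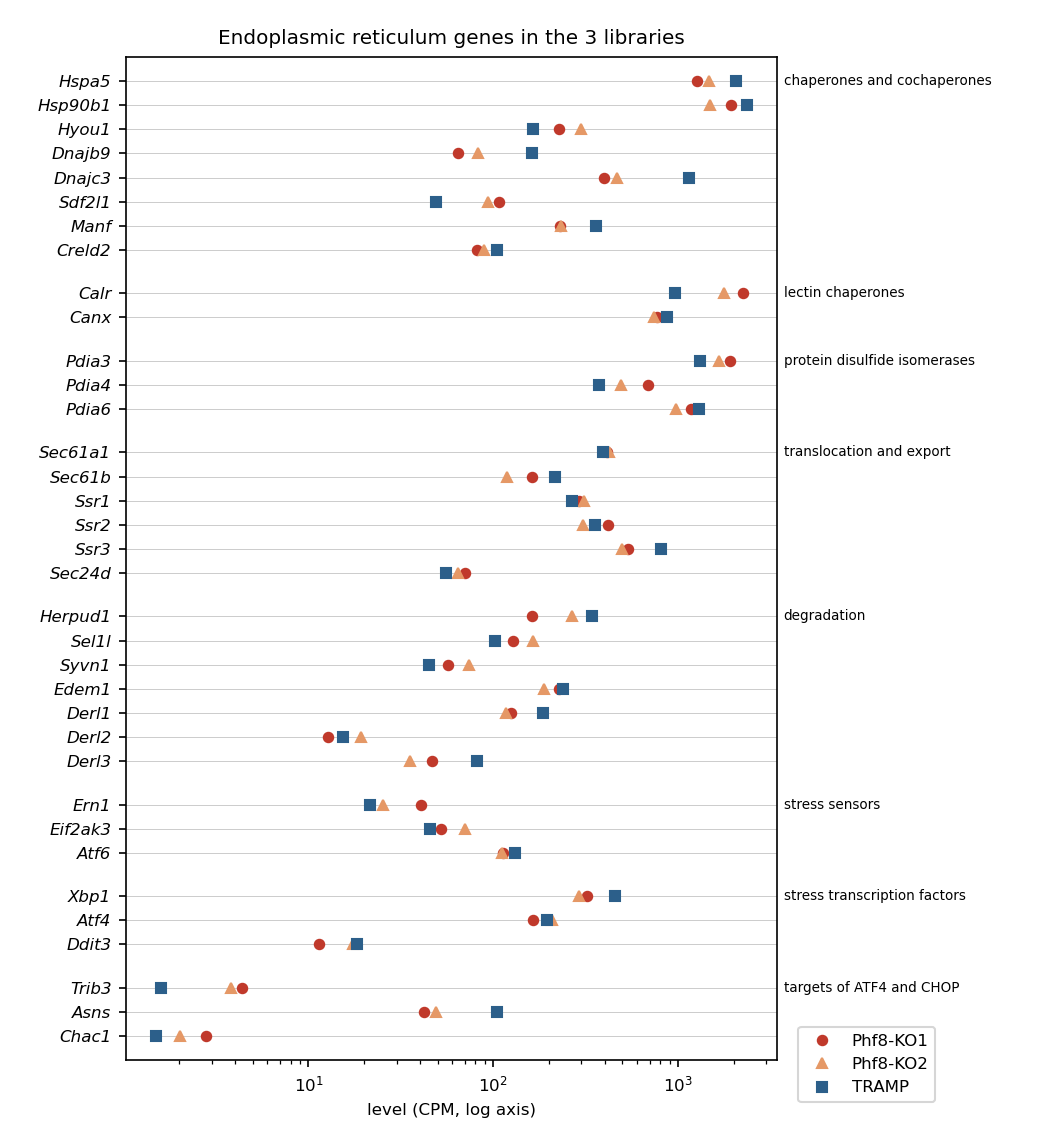
Level of each of the 35 genes in CPM on a log axis, grouped by role, with a circle for Phf8-KO1, a triangle for Phf8-KO2 and a square for the TRAMP pool. Dnajc3, Dnajb9 and Asns lie to the left of the TRAMP square in both Phf8-KO pools, and Sdf2l1 and Calr to its right in both.

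Many of these genes are known targets of ATF6 and XBP1, which act through the endoplasmic reticulum stress element (ERSE), written CCAAT, 9 bases of any kind and CCACG. The promoters of RefSeq (GRCm38.p6, 250 bases before to 50 after the start) held 29 of the 35 genes. Promoters of Hyou1, Manf, Sec61a1, Ssr2, Derl1 and Atf6 were not analysed here. On either strand, 9 of the 29 held the full ERSE (31.0%), against 0.137% of 27025 genes with a promoter. As the list was written around known targets of this response, that share is a description of the list. The sites are shown because the genes that carry them lie on both sides of the comparison. Each is read along the motif, with the fixed bases in capitals:
Hspa5 (chr2:34772025-34772043): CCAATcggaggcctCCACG
Hsp90b1, distal site (chr10:86705638-86705656): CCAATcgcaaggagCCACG
Hsp90b1, proximal site (chr10:86705533-86705551): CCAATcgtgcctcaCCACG
Dnajc3 (chr14:118937827-118937845): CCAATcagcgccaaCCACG
Creld2 (chr15:88819520-88819538): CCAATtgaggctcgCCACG
Calr (chr8:84847075-84847093): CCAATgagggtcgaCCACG
Canx (chr11:50325800-50325818): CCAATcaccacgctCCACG
Pdia6 (chr12:17266491-17266509): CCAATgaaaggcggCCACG
Syvn1 (chr19:6046532-6046550): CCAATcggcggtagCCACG
Derl3 (chr10:75893242-75893260): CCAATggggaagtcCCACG

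The sites of Calr, Creld2, Derl3 and the proximal one of Hsp90b1 run opposite to the gene. Across the 9 genes, the first bases of the sites lie between -212 (Hsp90b1) and -44 (Syvn1) from the start. Of the 9 genes with an ERSE, 7 had a log2 fold change below 0 and 2 (Calr and Syvn1) above, with a median of -0.30. With GC offsets Canx and Syvn1 changed sides. Of the 20 other genes of the list with a promoter, 9 were below 0 and 11 above, with a median of 0.12. The 13 genes outside the list that had an ERSE and were tested had a median of 0.13, with 6 below 0 and 7 above. The lowest of them was Ero1b (log2 fold change -3.56), described below with the folding enzymes.

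Dnajc3 and Calr carry an ERSE each, and had the lowest and one of the highest fold changes of the list. Hspa5 is shown with them as the best known gene of the response. The 180 bases before each start are given 5′ to 3′ along the gene, with ERSE sites and the core of the unfolded protein response element (TGACGTG) in capitals, from chr14:118937752-118937931 (plus strand), chr8:84846932-84847111 (minus strand) and chr2:34771910-34772089 (plus strand):
Dnajc3: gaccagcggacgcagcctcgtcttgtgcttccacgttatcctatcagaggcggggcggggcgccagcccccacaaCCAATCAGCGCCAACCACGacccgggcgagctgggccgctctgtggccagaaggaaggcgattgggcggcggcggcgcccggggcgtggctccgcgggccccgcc
Calr: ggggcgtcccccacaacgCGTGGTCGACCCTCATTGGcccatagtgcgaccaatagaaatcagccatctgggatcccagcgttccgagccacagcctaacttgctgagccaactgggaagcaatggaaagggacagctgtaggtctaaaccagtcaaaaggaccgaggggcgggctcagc
Hspa5: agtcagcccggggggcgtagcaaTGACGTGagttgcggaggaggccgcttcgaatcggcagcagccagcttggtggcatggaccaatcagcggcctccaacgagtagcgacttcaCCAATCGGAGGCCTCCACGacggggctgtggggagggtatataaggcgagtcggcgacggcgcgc

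The core TGACGTG was found in 2 of the 29 promoters (6.90%, Hspa5 and Sec24d), against 2.22% of all. The second form of the stress element, written ATTGG, 1 base of any kind and CCACG, was found in 1 (3.45%, Herpud1, ATTGGgCCACG), against 0.0444% of all. The amino acid response element that ATF4 binds was searched only in the form TGATG, 1 base of any kind and AAT. That form was in 0 of the 29 windows and in 1.08% of all. Forms with another last base were not counted. The Asns window holds tgatgaaac, which departs from that form in its last base only. On the opposite strand, the same holds for the windows of Chac1 and Herpud1, which read gttgcatca along the gene. The count of 0 therefore does not show that these windows lack the element. A match describes these letters in this window and shows no binding.

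Of the chaperones and cochaperones, 6 of 8 lay below TRAMP in both Phf8-KO pools (beside 42.8% of all genes tested) and 2 above (beside 40.8%), with a median log2 fold change of -0.53. These shares of all genes are the background for the counts of the smaller roles too. Dnajc3 encodes p58IPK, a cochaperone of BiP that also restrains PERK. It was at 395 CPM in Phf8-KO1, 468 CPM in Phf8-KO2 and 1140 CPM in TRAMP. This was the lowest fold change of the 35 genes (log2 fold change -1.40, standard error 0.28, unadjusted p = 0.00793, adjusted p = 0.107 in edgeR's quasi-likelihood test), and DESeq2 gave an adjusted p of 5.13e-05. Per kilobase of exon, Dnajc3 ranked 13 and 12 among the 35 genes in the Phf8-KO pools and 6 in the TRAMP pool. Dnajb9 encodes ERdj4, which delivers unfolded proteins and can hold IRE1 in check. It was at 64.7 and 82.8 CPM in Phf8-KO, against 161 CPM in TRAMP (log2 fold change -1.12, standard error 0.23, unadjusted p = 0.00893, adjusted p = 0.108 in edgeR's quasi-likelihood test). For both cochaperones the TRAMP pool lay above both Phf8-KO pools by more than these differed from each other.

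Sdf2l1, a protein that works with the BiP cochaperone ERdj3, lay on the other side. Its level was 107 and 93.9 CPM in the Phf8-KO pools, against 49.2 CPM in the TRAMP pool (log2 fold change 1.03, standard error 0.20, unadjusted p = 0.00787, adjusted p = 0.106 in edgeR's quasi-likelihood test), and it was the only one of the 35 genes above TRAMP at an unadjusted p under 0.05. Sdf2, its paralog and not one of the 35, was at 67.0 and 71.0 CPM in Phf8-KO tumors and 145 CPM in the TRAMP pool (log2 fold change -1.07, adjusted p = 0.101 in edgeR's quasi-likelihood test). The ratio of Sdf2l1 to Sdf2 in CPM was therefore 1.60 and 1.32 in the Phf8-KO pools and 0.340 in the TRAMP pool. Sdf2l1 was thus the more abundant paralog by CPM in both Phf8-KO pools and Sdf2 in the TRAMP pool, on counts not scaled to gene length.

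The main chaperones were less far apart. Hspa5 encodes BiP, the Hsp70 of the compartment and the usual readout of the response. It was at 1270 CPM in Phf8-KO1, 1470 CPM in Phf8-KO2 and 2060 CPM in TRAMP (log2 fold change -0.60, standard error 0.35, adjusted p = 0.343 in edgeR's quasi-likelihood test). Both Phf8-KO pools lay below TRAMP, by a difference that did not pass the test. Hsp90b1, the gene of GRP94, was at 1930 and 1490 CPM in Phf8-KO, against 2370 CPM in TRAMP (log2 fold change -0.47, or -0.148 with GC offsets). Hyou1, the Hsp110-type exchange factor of BiP, was at 228 and 298 CPM in Phf8-KO tumors and 164 CPM in the TRAMP pool (log2 fold change 0.68), so that the chaperone and its exchange factor lay on opposite sides of TRAMP. Manf, a secreted factor that binds BiP, was nearly the same in the Phf8-KO pools at 231 and 232 CPM and was at 358 CPM in the TRAMP pool (log2 fold change -0.63, standard error 0.20, unadjusted p = 0.0387, adjusted p = 0.166 in edgeR's quasi-likelihood test). Creld2, a secreted stress protein, had a log2 fold change of -0.30.

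The lectin chaperones calreticulin and calnexin bind the same glycan on new glycoproteins, the first free in the lumen and the second in the membrane. Calr was at 2240 CPM in Phf8-KO1, 1770 CPM in Phf8-KO2 and 963 CPM in TRAMP (log2 fold change 1.06, standard error 0.40, unadjusted p = 0.059, adjusted p = 0.201 in edgeR's quasi-likelihood test), and DESeq2 gave an adjusted p of 0.00339. Canx was at 773 and 741 CPM in Phf8-KO, against 869 CPM in TRAMP (log2 fold change -0.20, or 0.20 with the GC offsets described below). The groups did not overlap for either gene, but the distance was small for Canx. The ratio of Calr to Canx in CPM was 2.89 and 2.39 in the Phf8-KO pools and 1.11 in the TRAMP pool. Per kilobase of exon, Calr was the most abundant of the 35 mRNAs in both Phf8-KO pools, at 776 and 613 CPM per kilobase, and ranked 5 in the TRAMP pool at 334 CPM per kilobase, where Hsp90b1 ranked 1.

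The disulfide isomerases form and rearrange disulfide bonds. Pdia3, which works with calreticulin and calnexin, was at 1900 and 1660 CPM in Phf8-KO tumors and 1310 CPM in the TRAMP pool (log2 fold change 0.44). Pdia4 was at 689 CPM in Phf8-KO1, 493 CPM in Phf8-KO2 and 374 CPM in TRAMP (log2 fold change 0.66), with the Phf8-KO pools further from each other than the nearer one was from TRAMP. Pdia6 was at 1180 and 977 CPM in Phf8-KO, against 1290 CPM in TRAMP (log2 fold change -0.26). None of these differences passed the test, with adjusted p-values from 0.291 to 0.638 in edgeR's quasi-likelihood test.

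**Figure D2:**
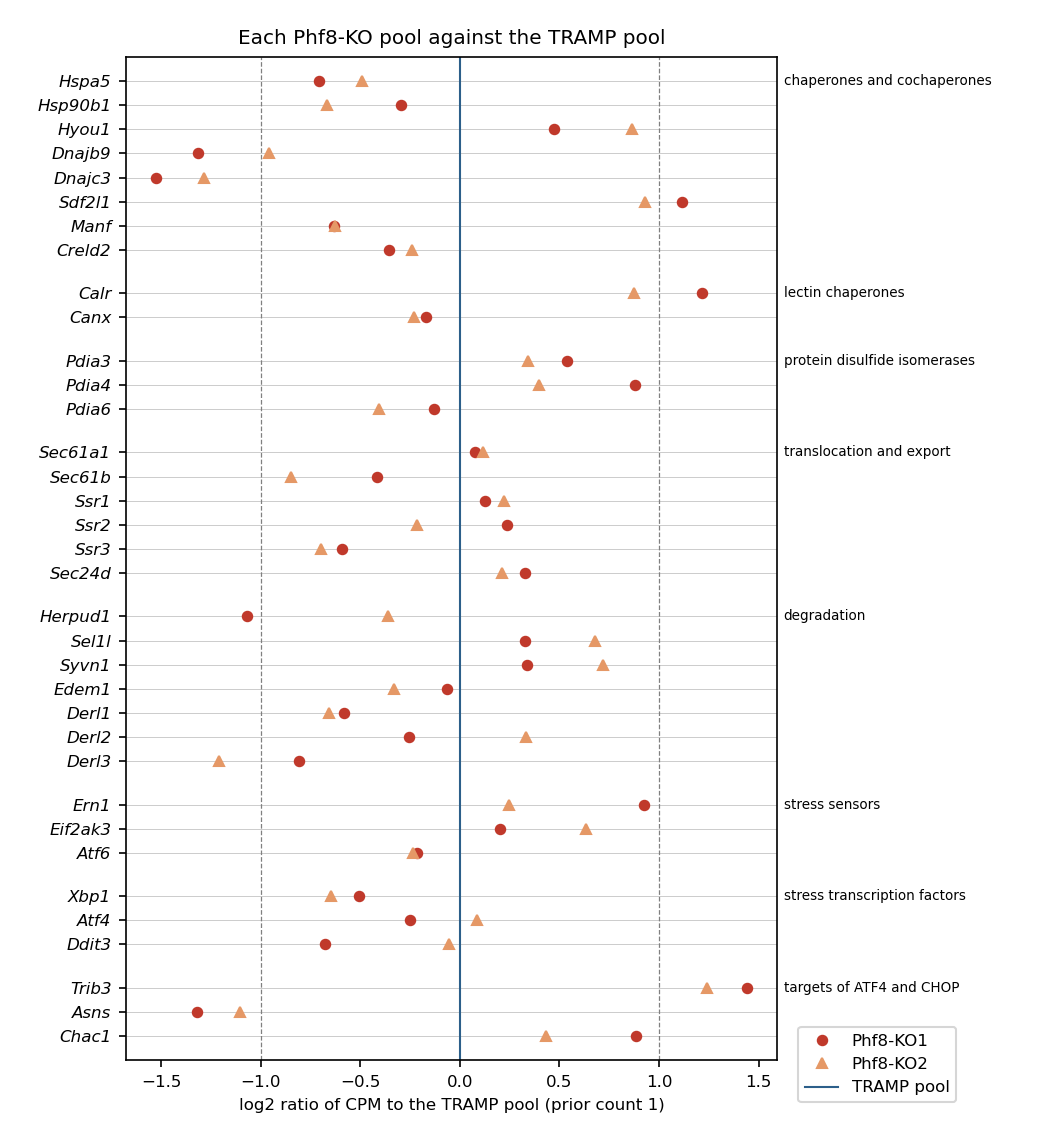
Log2 ratio of each Phf8-KO pool to the TRAMP pool for the 35 genes by role, as a circle for Phf8-KO1 and a triangle for Phf8-KO2, with the TRAMP pool as the line at 0 and dashed lines at 2-fold. Dnajc3 and Asns lie beyond the lower dashed line in both Phf8-KO pools, while the pools lie far apart for Herpud1, Ern1 and Ddit3.

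Of the genes of translocation and export, 3 of 6 lay above TRAMP in both Phf8-KO pools, 2 below and 1 between, and the log2 fold changes ran between -0.64 and 0.27. The channel subunits differed in their distance from TRAMP. Sec61a1, the pore, was at 412 and 423 CPM in Phf8-KO tumors and 391 CPM in the TRAMP pool (log2 fold change 0.10). Its sign was not stable, at -0.054 with upper quartile scaling and -0.23 with GC offsets. The small subunit gene Sec61b was at 161 CPM in Phf8-KO1, 119 CPM in Phf8-KO2 and 215 CPM in TRAMP (log2 fold change -0.62). Of the subunits of the translocon-associated protein complex, Ssr3 was at 536 and 499 CPM in Phf8-KO, against 808 CPM in TRAMP (log2 fold change -0.64, adjusted p = 0.217 in edgeR's quasi-likelihood test), while Ssr1 (0.18) and Ssr2 (0.03, or -0.12 with upper quartile scaling) had log2 fold changes near 0. Sec24d, which selects cargo for COPII vesicles, had a log2 fold change of 0.27.

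The degradation genes were 4 of 7 lower in both Phf8-KO pools, 2 higher and 1 between. The derlins are membrane proteins through which misfolded proteins leave for the cytosol. Derl3 was at 46.7 and 35.3 CPM in Phf8-KO tumors and 81.7 CPM in the TRAMP pool (log2 fold change -0.995, standard error 0.25, unadjusted p = 0.0166, adjusted p = 0.126 in edgeR's quasi-likelihood test). Derl1 was at 124 CPM in Phf8-KO1, 117 CPM in Phf8-KO2 and 185 CPM in TRAMP (log2 fold change -0.62, standard error 0.18, unadjusted p = 0.0282, adjusted p = 0.148 in edgeR's quasi-likelihood test). Derl2 was low in every library, at 12.8 and 19.3 CPM in Phf8-KO, against 15.3 CPM in TRAMP, with TRAMP between them. Thus 2 of the 3 derlins lay below TRAMP in both Phf8-KO pools.

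Derl3 is also abundant in plasma cells, the antibody-secreting cells. Of 10 plasma cell markers, 7 were tested, of which 4 lay below TRAMP in both Phf8-KO pools and 3 above. The summed level of the list was 213 and 116 CPM in the Phf8-KO pools, against 423 CPM in the TRAMP pool. The joining chain gene Jchain was at 54.7 and 13.2 CPM in Phf8-KO tumors and 321 CPM in the TRAMP pool, and Mzb1 was at 0.563 and 0.513 against 4.95 CPM, while Igkc and Ighm are listed at 0 in every library. Sdc1, which epithelial cells also express, made up most of the sum in the Phf8-KO pools at 152 and 94.7 CPM, against 89.9 CPM in TRAMP, and Prdm1 (4.58 and 7.33 against 2.53 CPM) and Igha (0.525 and 0.423 against 0.208 CPM) lay on the same side as Sdc1. The part of plasma cells in the value of Derl3 was not tested.

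The ubiquitin ligase of the compartment is Syvn1 (HRD1), and Sel1l is its partner. Syvn1 was at 56.6 CPM in Phf8-KO1, 73.7 CPM in Phf8-KO2 and 44.8 CPM in TRAMP (log2 fold change 0.54, or -0.10 with GC offsets), and Sel1l was at 128 and 164 CPM in Phf8-KO, against 102 CPM in TRAMP (log2 fold change 0.51). The partners lay on the same side of TRAMP, and for each the Phf8-KO pools were further from each other than the nearer one was from TRAMP. Herpud1, a scaffold of the same ligase complex, lay on the other side at 162 and 266 CPM in Phf8-KO tumors and 341 CPM in the TRAMP pool (log2 fold change -0.67), and it had the largest distance between the Phf8-KO pools of the 35 genes, with a ratio of Phf8-KO1 to Phf8-KO2 of 0.610 (95% counting interval 0.588 to 0.633). Edem1, a mannosidase-like protein that marks glycoproteins for degradation, had a log2 fold change of -0.19.

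None of the stress sensors passed the test. Ern1, the gene of IRE1α, was at 40.8 CPM in Phf8-KO1, 25.4 CPM in Phf8-KO2 and 21.5 CPM in TRAMP (log2 fold change 0.63, standard error 0.37, adjusted p = 0.342 in edgeR's quasi-likelihood test). Eif2ak3, the gene of PERK, was at 52.2 and 70.4 CPM in Phf8-KO, against 45.3 CPM in TRAMP (log2 fold change 0.44, standard error 0.27, adjusted p = 0.356 in edgeR's quasi-likelihood test). Both lay above TRAMP, and for both the Phf8-KO pools differed more from each other than the nearer one from TRAMP. Atf6 was at 113 and 111 CPM in Phf8-KO tumors and 131 CPM in the TRAMP pool (log2 fold change -0.23, standard error 0.18, adjusted p = 0.458 in edgeR's quasi-likelihood test).

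None of the transcription factors of the response passed the test. Xbp1, the effector of IRE1, was at 322 CPM in Phf8-KO1, 292 CPM in Phf8-KO2 and 457 CPM in TRAMP (log2 fold change -0.58, standard error 0.23, adjusted p = 0.214 in edgeR's quasi-likelihood test). Atf4, the effector of PERK, was at 165 and 208 CPM in Phf8-KO, against 196 CPM in TRAMP (log2 fold change -0.07, standard error 0.24, adjusted p = 0.864 in edgeR's quasi-likelihood test). Ddit3, the gene of CHOP, a factor linked to cell death under stress, was at 11.4 and 17.5 CPM in Phf8-KO tumors and 18.2 CPM in the TRAMP pool (log2 fold change -0.33, standard error 0.37, adjusted p = 0.59 in edgeR's quasi-likelihood test). Xbp1 lay below TRAMP in both Phf8-KO pools by more than these differed, whereas TRAMP lay between the pools for Atf4 and close to Phf8-KO2 for Ddit3.

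The targets of ATF4 and CHOP lay on both sides of TRAMP. Asns, the asparagine synthetase, was at 42.2 CPM in Phf8-KO1, 49.0 CPM in Phf8-KO2 and 105 CPM in TRAMP (log2 fold change -1.21, standard error 0.19, unadjusted p = 0.00385, adjusted p = 0.101 in edgeR's quasi-likelihood test), and DESeq2 gave an adjusted p of 0.00339. Trib3, a pseudokinase that CHOP and ATF4 induce, was rare, with 117 and 126 counts in the Phf8-KO pools and 46 counts in the TRAMP pool (log2 fold change 1.36, standard error 0.56, adjusted p = 0.223 in edgeR's quasi-likelihood test). Chac1, an enzyme that breaks down glutathione, had 74 and 67 counts in the Phf8-KO pools and 43 counts in the TRAMP pool (log2 fold change 0.69, or 0.05 with GC offsets). Asns lay below TRAMP and the others above it in both Phf8-KO pools.

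A further 160 genes of the same pathways were listed by role, of which 155 were tested. None passed edgeR's quasi-likelihood test. The unadjusted p was under 0.05 for 32 that lay lower (20.6%, beside 12.2% of all genes tested) and 22 that lay higher (14.2%, beside 14.9%). With DESeq2 the calls were 9 lower (5.81%, beside 4.59%) and 8 higher (5.16%, beside 9.42%). Their median log2 fold change was 0.06. The genes of translocation and glycosylation were the most one-sided list, with a median of -0.57 and 24 of 28 below TRAMP in both Phf8-KO pools (85.7%, beside 42.8% of all genes tested). At an unadjusted p under 0.05, 13 of them lay lower (46.4%, beside 12.2%) and 0 higher (beside 14.9%). Among them, Sec11c, a catalytic subunit of the signal peptidase, was at 238 and 200 CPM in Phf8-KO, against 645 CPM in TRAMP (log2 fold change -1.56). Srp9, a subunit of the signal recognition particle, was at 128 and 130 CPM in Phf8-KO tumors and 297 CPM in the TRAMP pool (log2 fold change -1.20). The glycosylation factor Magt1 (-0.83, or -0.37 with the GC offsets described below) and Sec62, a partner of the channel (-0.90, or -0.51), also had log2 fold changes below 0. With the offsets, 25 of the 28 genes had a log2 fold change below 0. Magt1, Sec62, Tram1, Srp19, Srp72, Spcs2, Sec11a and Ostc then no longer met an unadjusted p under 0.05, and Srp68 and Krtcap2 were added. Of the 35 genes, Sec61b (-0.62, or -0.73 with GC offsets) and Ssr3 (-0.64, or -0.185 with GC offsets) also had log2 fold changes below 0.

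The other targets of ATF4 and CHOP lay mostly the other way, with a median of 0.73 and 23 of 31 above TRAMP in both Phf8-KO pools (74.2%, beside 40.8% of all genes tested). At an unadjusted p under 0.05, 10 of them lay higher (32.3%, beside 14.9%) and 2 lower (6.45%, beside 12.2%). The list was less one-sided with the GC offsets described below. Sesn2, Atf3, Shmt2, Wars and Aars then no longer met that p, and among the higher genes only Cebpg was added. Psph and Pycr1 joined Nupr1 and Phgdh among the lower genes. Atf5, a relative of Atf4, was at 43.7 CPM in Phf8-KO1, 34.1 CPM in Phf8-KO2 and 10.4 CPM in TRAMP (log2 fold change 1.91, or 0.96 with GC offsets). The serine and glycine enzymes Psat1 (0.93) and Shmt2 (1.04, or 0.41 with GC offsets) had log2 fold changes above 0. Phgdh (-0.75, or -1.37 with GC offsets) and Psph (-0.69, or -0.996 with GC offsets), also enzymes of serine synthesis, had log2 fold changes below 0. Nupr1, a stress-induced chromatin protein, was the exception with the smallest p of the list, at 46.5 and 48.1 CPM in Phf8-KO, against 187 CPM in TRAMP (log2 fold change -1.99, adjusted p = 0.101 in edgeR's quasi-likelihood test). Asns thus lay on the side of Nupr1, and Trib3 and Chac1 on the side of the larger number.

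Of the other folding enzymes and chaperones, 17 of 34 lay above TRAMP in both Phf8-KO pools and 13 below, with a median of 0.12. Ero1b, an oxidase that recharges the disulfide isomerases, was at 7.66 and 4.07 CPM in Phf8-KO tumors and 69.2 CPM in the TRAMP pool (log2 fold change -3.56, standard error 0.43, adjusted p = 0.101 in edgeR's quasi-likelihood test). Prkcsh, the beta subunit of the glucosidase that trims glycans for the calnexin cycle, was at 174 CPM in Phf8-KO1, 178 CPM in Phf8-KO2 and 49.7 CPM in TRAMP (log2 fold change 1.83, or 1.19 with GC offsets). Qsox1, a sulfhydryl oxidase, was at 311 and 303 CPM in Phf8-KO, against 110 CPM in TRAMP (log2 fold change 1.49, or 0.945 with GC offsets). Prkcsh, Qsox1 and Calr lay above TRAMP in both Phf8-KO pools, and Ero1b and Sdf2 below.

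The remaining lists had medians of 0.02 (other degradation genes), 0.16 (export and retrieval) and 0.17 (other stress regulators). In both Phf8-KO pools, 8 of 21 degradation genes lay above TRAMP and 8 below. For export these were 11 of 21 and 8, and for stress regulators 11 of 20 and 9. At an unadjusted p under 0.05, 6 stress regulators lay lower (30%, beside 12.2% of all genes tested) and 1 higher (5%, beside 14.9%). By that p, 3 degradation genes lay lower (14.3%) and 3 higher (14.3%). Of the export genes, 3 lay lower (14.3%) and 4 higher (19%). Of the degradation genes, Selenos (-0.98), Ube2j1 (-0.87), Man1b1 (0.88) and Selenok (-0.72) had the smallest p. In export, these were the cargo receptor subunit Mcfd2 (-0.94), the COPII GTPase Sar1b (-0.83), the COPII coat gene Sec31a (0.90) and Kdelr1 (0.94), which returns chaperones such as BiP from the Golgi. Bhlha15 (MIST1), a target of XBP1 that shapes secretory cells, was at 55.1 and 73.3 CPM in Phf8-KO tumors and 173 CPM in the TRAMP pool (log2 fold change -1.43, adjusted p = 0.101 in edgeR's quasi-likelihood test). Creb3 (-0.76), Nck1 (-0.73) and Nfe2l2 (-0.82) were the next by p among the stress regulators. With GC offsets, Nck1 (-0.226) and Eif2s1 (-0.094) no longer met an unadjusted p under 0.05 among the lower genes. Tmbim6 (0.699), the higher one, no longer met it either. Bhlha15 and Xbp1 both lay below TRAMP in both Phf8-KO pools. Ern2, the IRE1 of mucus-producing epithelium, is named after its values were seen, with 41 counts in Phf8-KO1, 1143 in Phf8-KO2 and 3 in TRAMP. It lay above TRAMP in both Phf8-KO pools and was highest in Phf8-KO2, the library with the highest goblet-like mucus cell markers. Ern2 is itself on that marker list, and the part of these cells in its value was not tested.

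**Figure D3:**
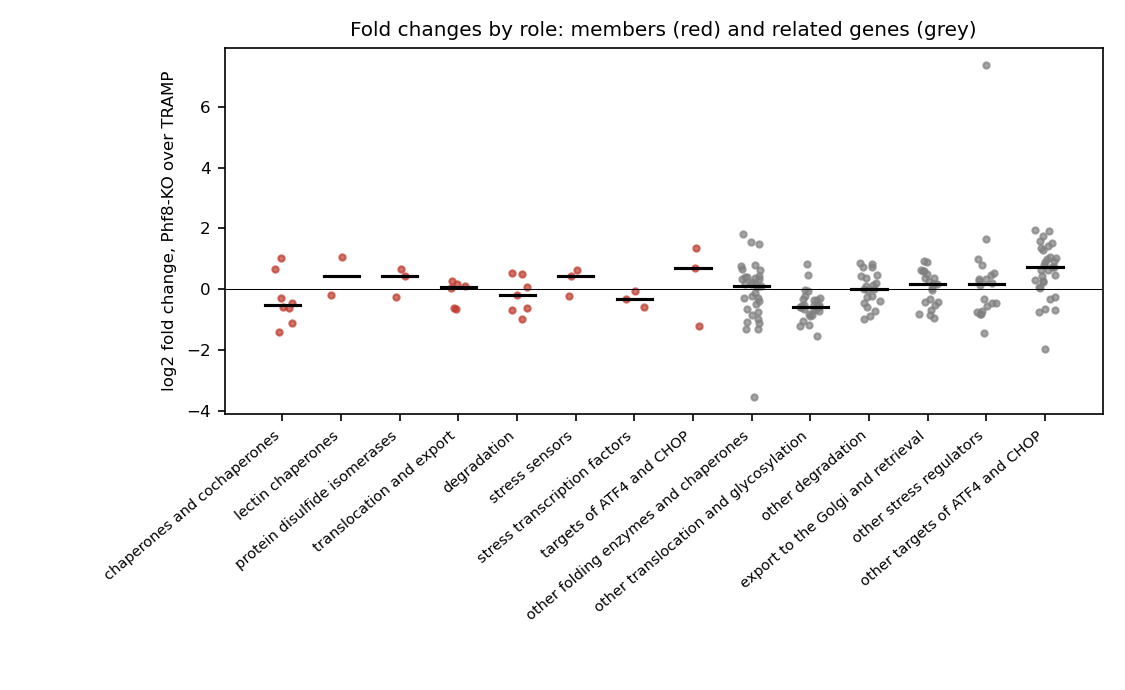
Log2 fold change of Phf8-KO over TRAMP for each tested gene, by role, in red for the 35 genes and grey for the 155 related genes, with a black bar at each median. The grey translocation and glycosylation genes centre on -0.57 and the grey targets of ATF4 and CHOP on 0.73, while the single point above 7 is Ern2, which had 3 counts in the TRAMP pool.

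Fold change went with the GC content of the transcript across all genes. With 16981 tested genes of known GC content split by it into 5 groups of like size, the median log2 fold change was -0.45 in the group of lowest GC content, then -0.20, 0.001 and 0.33, and 0.74 in the highest. Among the 35 genes, Pearson's r between GC content and log2 fold change was 0.40 and Spearman's rho 0.35 (n = 35 genes, which share the same 3 libraries), beside 0.26 and 0.40 for all genes. Dnajb9 (40.6% GC) and Dnajc3 (43.2%) lay at the low end, and Sdf2l1 (56.7%) and Trib3 (58.2%) at the high end. With offsets that remove the trend, the log2 fold change was -1.05 for Dnajc3, -0.66 for Dnajb9, 0.46 for Sdf2l1, 0.65 for Trib3, 0.05 for Chac1 (57.4%), 1.05 for Calr, -1.09 for Asns (47.7%) and -1.62 for Derl3 (57.3%). Dnajb9, Sdf2l1 and Trib3 were thus less than 2-fold from TRAMP with the offsets and Derl3 more than 2-fold. At an unadjusted p under 0.05 with the offsets, 9 of the 35 genes lay below TRAMP (25.7%) and 0 above. The share of all genes tested is not given for this fit, so these counts have no background beside them. Creld2 (-0.70), Sec61b (-0.73) and Xbp1 (-0.83) had joined the lower genes, and Sdf2l1 no longer met that p. The medians of the translocation and glycosylation genes and of the other targets of ATF4 and CHOP were -0.42 and 0.44 with the offsets. Fold change also differed with exon length across all genes. In the shortest of 5 length groups (56 to 1898 bases) the median log2 fold change was -0.26, and in the others it lay between 0.041 and 0.14. No offsets for length were fitted, and the part of length in these results was not tested.

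**Figure D4:**
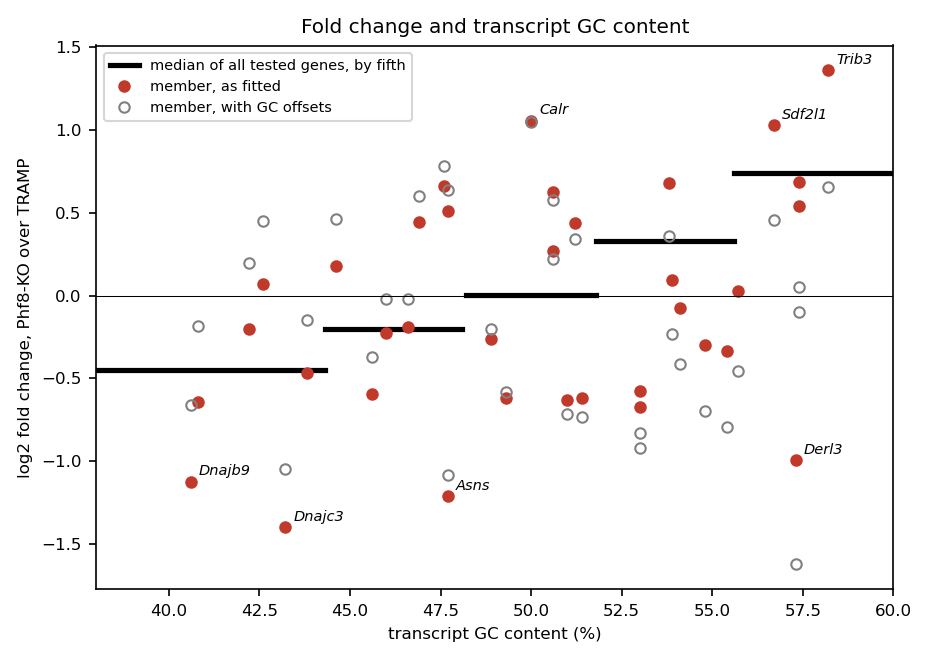
Log2 fold change of Phf8-KO over TRAMP against transcript GC content in percent, with filled circles for the 35 genes as fitted, open circles with GC offsets, and black bars for the median of all tested genes in each of 5 GC groups. The black bars climb with GC content, and Calr keeps its place with the offsets while Sdf2l1 and Dnajb9 lie closer to 0.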

How the data were processed

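Tumor RNA was sequenced as 2 Phf8-KO libraries and 1 TRAMP library. Filtered reads were aligned by the authors with HISAT2 (genome GRCm38) and assigned to genes with HTSeq, which gave the raw counts that they deposited. Tool versions, annotation and strand setting are not given in the sources used here. Exons of 12 of the 35 genes overlap those of another gene in GENCODE.

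Counts were tested in R 4.3.3 with edgeR 4.0.16 (quasi-likelihood test at its default setting, TMM factors, filterByExpr, and Benjamini-Hochberg adjustment, with 18216 genes tested). DESeq2 1.42.0, the tool of the paper, was an alternative and gave no adjusted p for 9488 of 25757 genes. limma 3.58.1 served for voom. The TRAMP pool was assumed to vary like the Phf8-KO pools. CPM are on TMM library sizes (factors 0.997, 1.04 and 0.965 for Phf8-KO1, Phf8-KO2 and TRAMP), and levels per kilobase use the summed exon length of GENCODE. Counting intervals are exact (95%) and cover counting error only. In these libraries, 3 counts are worth 0.113, 0.0905 and 0.104 CPM. GC offsets are a lowess fit (span 0.3) of log ratios on GC content of the longest protein-coding transcript, or else of the longest transcript. The steps were tested on simulated data.

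The 35 genes, the related lists, the markers and the rule for named genes were chosen with earlier results of these data known. The rule gives in full the genes that passed the test or had an unadjusted p under 0.05, the sensors and the transcription factors, and of each related list up to 4 genes with the smallest p. Values by library for other genes were added after they were seen. Other settings were scaling by RLE, by upper quartile and by library size, no filter, a minimum mean CPM of 1, limma-voom, DESeq2, edgeR without its legacy setting, no fold threshold, a prior count of 2, and leaving out each Phf8-KO pool.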

Additional observations from a re-analysis of the deposited data

How the results depend on the processing

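Of the 35 genes, 29 kept the sign of their log2 fold change in every setting. Against 0 called higher and 0 lower, 1 was called higher and 3 lower with no filter on low counts, and 2 higher and 3 lower with DESeq2. At an unadjusted p under 0.05, against 1 higher, the count was 2 with library size scaling, 3 with no filter, 4 with DESeq2, 2 with limma-voom and 0 with GC offsets, an alternative chosen after seeing the data. The share of all genes at that p is not given for these settings, so a change in these counts cannot be told from one in all genes. The median of -0.19 was -0.34 with upper quartile scaling (under which the median of all tested genes shifted by -0.149), and -0.12 with library size scaling, -0.24 with a mean CPM of at least 1 and -0.15 with GC offsets. Leaving out each Phf8-KO pool gave a median of -0.19 and -0.17, as values with no test. Against 0 and 0, the related genes called higher and lower were 7 and 8 with no filter and 8 and 9 with DESeq2. The sign turned for Atf4 with library size scaling (0.008), Canx with GC offsets (0.20), Derl2 with upper quartile scaling (-0.083), Sec61a1 with upper quartile scaling (-0.054) and GC offsets (-0.23), Ssr2 with upper quartile scaling (-0.12), a mean CPM of at least 1 (-0.019) and GC offsets (-0.46), and Syvn1 with GC offsets (-0.10). It also turned on leaving out a pool for the 3 genes with TRAMP between the pools, namely Atf4 (0.11) and Ssr2 (-0.19) without Phf8-KO1, and Derl2 (-0.25) without Phf8-KO2. The cause was not tested. No filter raised the calls over all genes to 1430 higher and 856 lower of 25757. DESeq2 raised them to 1533 higher and 747 lower (9.42% and 4.59%). No paired analysis was possible because the groups share fewer than 2 replicate numbers. With 1 TRAMP pool, a difference between that pool and other TRAMP mice cannot be seen.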
